A study of Mus musculus with 2 samples.

Results

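The 10 genes described here encode proteins of the meiotic chromosome axis and of the synaptonemal complex, together with the enzyme that remodels the axis proteins. They were taken by symbol from a count table of mouse foetal germ cells and comprise Sycp1, Sycp2, Sycp3, Syce1, Syce2, Syce3, Tex12, Hormad1, Hormad2 and Trip13. All 10 were among the 42422 genes of the table, and all 10 passed the filter on low counts, as did 15252 genes in all. The RNA came from Oct4-eGFP-positive germ cells sorted from embryos of 129T2svJ males carrying the reporter and Swiss females, so every group shared the reporter. Sorted cells were pooled from several gonads per sample. The 10 groups of 4 libraries each were uncultured E12.5 germ cells of each sex (0 h), XX and XY germ cells after gonad culture with the vehicle DMSO for 24 h or 72 h, and XY germ cells after 24 h or 72 h with 500 nM of the FGF receptor inhibitor Infigratinib (BGJ398; FGFRi) or 500 nM of the MEK1/2 inhibitor Mirdametinib (PD0325901; MEKi). No XX gonads were treated with an inhibitor, and gonads were cultured with the mesonephros attached, so the germ cells were treated together with their somatic neighbours.

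In meiotic prophase the sister chromatids of each chromosome are organised as loops on a proteinaceous axis, and the axes of homologous chromosomes are then zipped together by the synaptonemal complex. SYCP2 and SYCP3 form the axis core and HORMAD1 and HORMAD2 bind to it. SYCP1 is the transverse filament that spans the gap between axes, and SYCE1, SYCE2, SYCE3 and TEX12 form the central element in the middle. TRIP13 is an AAA+ ATPase that removes HORMAD proteins from synapsed axes and also acts on the mitotic checkpoint, so it is not restricted to meiosis. In the mouse, XX germ cells enter meiosis in the foetal ovary, whereas XY germ cells become mitotically arrested and enter meiosis only after birth.

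The promoters of several members hold motifs of factors known to regulate meiotic genes, and 4 with matches are shown, chosen among the genes the results turn on. Each sequence is the 250 bases before the annotated start, read in the direction of transcription, from RefSeq (GRCm38.p6), with motif matches in capitals. The motifs searched on both strands were the E2F6 core TCCCGC, the E-box CACGTG and the STRA8-associated motif CNCCTCAG.
Hormad2, chr11:4441083-4441332, minus strand: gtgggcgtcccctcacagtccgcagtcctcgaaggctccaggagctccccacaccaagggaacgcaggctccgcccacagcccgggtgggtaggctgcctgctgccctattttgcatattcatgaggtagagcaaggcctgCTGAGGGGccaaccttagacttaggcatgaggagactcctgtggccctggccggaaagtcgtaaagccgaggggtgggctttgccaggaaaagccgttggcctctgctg
Syce2, downstream of its 2 annotated starts, chr8:84872008-84872257, plus strand: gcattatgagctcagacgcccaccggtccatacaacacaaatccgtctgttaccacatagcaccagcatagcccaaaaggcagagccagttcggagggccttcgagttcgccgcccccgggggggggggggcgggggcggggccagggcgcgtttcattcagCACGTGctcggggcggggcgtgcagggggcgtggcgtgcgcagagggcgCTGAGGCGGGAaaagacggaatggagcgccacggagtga
Sycp3, chr10:88459337-88459586, plus strand: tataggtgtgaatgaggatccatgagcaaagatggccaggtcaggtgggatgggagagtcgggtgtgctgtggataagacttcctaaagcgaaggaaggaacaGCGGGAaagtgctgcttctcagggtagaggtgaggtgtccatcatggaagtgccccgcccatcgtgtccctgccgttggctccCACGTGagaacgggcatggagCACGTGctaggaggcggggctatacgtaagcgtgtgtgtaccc
Tex12, chr9:50561269-50561518, minus strand: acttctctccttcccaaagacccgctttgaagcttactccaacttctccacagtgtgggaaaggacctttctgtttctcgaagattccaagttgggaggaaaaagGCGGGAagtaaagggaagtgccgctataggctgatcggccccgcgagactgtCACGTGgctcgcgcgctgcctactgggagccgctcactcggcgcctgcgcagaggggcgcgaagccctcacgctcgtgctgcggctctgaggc
Every member had at least 1 window, 13 windows in all. Syce2, Syce3 and Hormad1 each had 2 windows that overlap. The GC content of the 13 windows was 53.2% to 68%, all above the median of 52.4% over all 32851 promoter windows of the same length. The E2F6 core was found in 6 of the 13 windows, those of Sycp3, Syce2, Tex12 and Hormad1, against 16.9% of all windows. The E-box was found in 6 windows, of the same 4 members and Sycp1, against 6.02% of all windows. The STRA8-associated motif was found in 2 windows, in Syce2, where it overlaps the E2F6 core, and of Hormad2, against 6.42% of all windows. The windows of the other 4 members, Sycp2, Syce1, Syce3 and Trip13, held none of the 3 motifs. A match of letters is a description and does not show that a factor binds there.

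Levels are given as CPM, the count of a gene after collapse by unique molecular identifier (UMI) scaled to a library of fixed size by trimmed mean of M values (TMM). CPM values were not compared between members. On GRCm39, Hormad2 lies at chr11:4295737-4391216 on the minus strand and Syce2 at chr8:85598740-85614853 on the plus strand. Sycp3, Syce2, Tex12 and Trip13 overlap the protein-coding genes Chpt1, Gcdh, Il18 and Brd9 on the opposite strand, and the study's code counted by strand. A change was called when limma's treat test against a 1.5-fold change gave a Benjamini-Hochberg adjusted p (FDR) under 0.05 over the 15252 genes, and log2 fold changes (logFC) are given ± SE from that fit. Total counts per library ranged from 1178953 to 5199153, and each member had at least 1 count in all 40 libraries, the lowest being 4 counts of Syce3. The germ cell markers Ddx4, Dazl, Pou5f1, Dppa3, Mael and Dppa5a were detected in every group, with a summed level between 2123 and 7542 CPM. The libraries were sequenced in 2 pools of 20. Comparisons of 72 h with 0 h, of 72 h with 24 h in DMSO or MEKi cultures and of FGFRi with DMSO at 24 h crossed the pools, so in these the pool and the condition cannot be told apart.

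For 16 libraries of the first pool, a library of the second pool carried the same sample index. The 4 XX 24 h libraries held 88 counts of the Y-linked genes Eif2s3y, Ddx3y, Kdm5d and Uty, which was 4.2% of the 2097 counts in the XY 72 h FGFRi libraries that shared their index. Over the 4 pairs this share ranged from 3.28% to 5.42%. The XX 0 h libraries, whose partners were XX, held 21 counts of these genes, a background that no XY partner supplied. It was not subtracted, so the full 4.2% used below, also where the share was removed, may be too high. The partners of the XX 0 h libraries were the XX 72 h libraries, in which most members were highest. The same share of the partners' counts would amount to 51.1% of the Syce3 counts in XX 0 h libraries, 46.0% for Tex12, 44.8% for Sycp2, 30.6% for Sycp3 and 29.3% for Sycp1, but 1.97% for Trip13. It would range over the members from 1.47% to 24.5% in XY 0 h, from 4.28% to 26.1% in XY 24 h DMSO and from 1.51% to 6.82% in XX 24 h libraries. Its part in these values was not tested further, and results with that share removed are given where they changed a call or moved a called value by over 1.5 times.

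**Figure D1:**
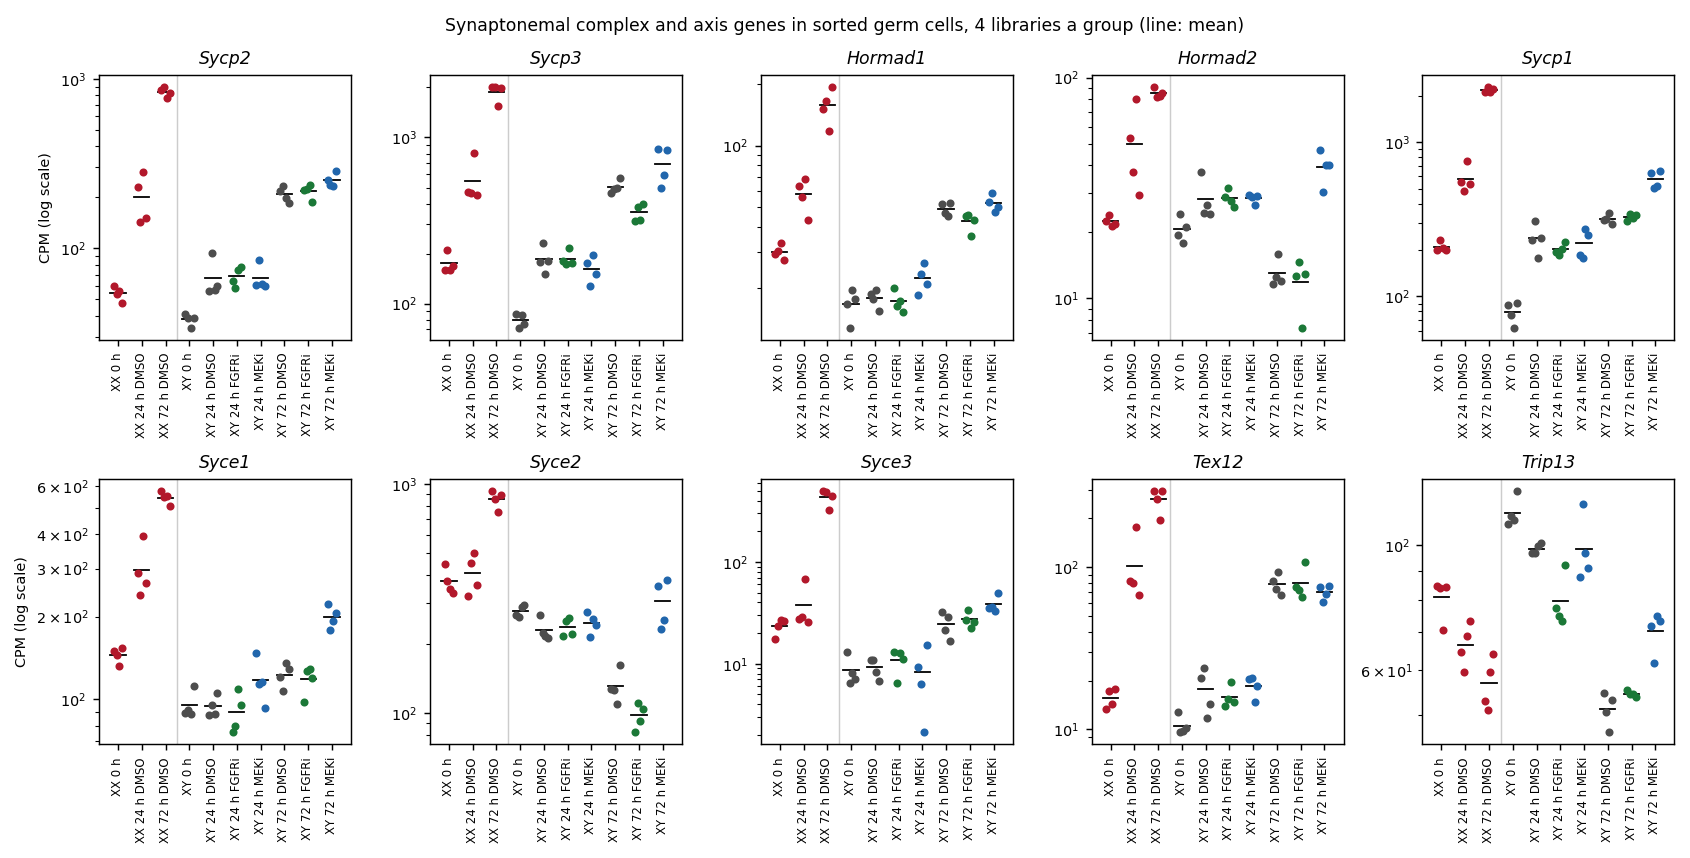
CPM on a log scale for each of the 10 genes in each of the 40 libraries, grouped by sex, time and treatment (red, XX; grey, XY 0 h or DMSO; green, FGFRi; blue, MEKi); lines are means of 4 libraries. For 9 genes the XX 72 h group is the highest, whereas Trip13 is highest in XY 0 h, at 114 CPM.

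Of the 10 members, 9 had their highest mean in XX germ cells after 72 h, and the remaining member, Trip13, had its highest mean in XY germ cells at 0 h (114 CPM). The span from the lowest to the highest group mean differed among members, from 2.23-fold for Trip13 and 6.06-fold for Syce1 to 52.9-fold for Syce3. Over the 10 group means of log2 CPM, Pearson's r between pairs of the 9 members other than Trip13 ranged from 0.240 to 0.984, with a median of 0.881 over 36 pairs. With Trip13 included, the lowest r was -0.855. These correlations describe group means that share libraries, pools and scaling between genes.

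Development of XX germ cells was addressed first. From 0 h to 72 h, 9 of the 10 members rose in XX germ cells, against 18.8% of all genes called higher in this comparison, and Trip13 did not pass the test. Over the same interval the 5 interstitial markers summed to 13.7 to 25.9 CPM at 0 h and 51.1 to 69.2 CPM at 72 h, the 7 blood and macrophage markers to 23.1 to 44.6 and 17.5 to 22.1 CPM, and the 6 germ cell markers to 3392 to 4160 and 2123 to 2500 CPM. The part of these differences in the values was not tested. The median logFC of the members was 2.90, against -0.01 over all genes tested.

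Among axis genes, Sycp2 was at 47.4, 54.1, 56.2 and 60.1 CPM in the XX 0 h libraries and at 767, 827, 860 and 899 CPM in the XX 72 h libraries. The groups were far apart, and the logFC was 3.99 ± 0.13 (FDR = 5.25e-29). Sycp3, its partner in the axis core, was at 159, 160, 170 and 210 CPM at 0 h and at 1542, 1980, 2016 and 2024 CPM at 72 h. Its logFC was 3.47 ± 0.13 (FDR = 5.11e-26). Hormad1, an axis-bound protein that recruits the break-forming machinery, rose from 30.1 ± 2.52 (SD, n = 4) to 158 ± 32 CPM (logFC 2.42 ± 0.13, FDR = 1.64e-17). Hormad2, its paralogue, rose from 22.3 ± 1.15 to 84.9 ± 4.29 CPM (logFC 1.94 ± 0.17, FDR = 7.44e-10).

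Sycp1, the transverse filament gene, was at 200, 201, 208 and 231 CPM at 0 h and at 2105, 2109, 2196 and 2292 CPM at 72 h in XX germ cells (logFC 3.38 ± 0.10, FDR = 4.79e-29). The annotation holds a processed pseudogene, Sycp1-ps1, whose counts followed the same course, from 14.8 to 251 CPM. Sycp1-ps1 stood at 7.04% to 11.5% of the Sycp1 mean in every group, and reads that fit both copies cannot be assigned with certainty.

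Central element genes differed in size and timing. Syce3 was at 17.5, 23.6, 26.5 and 26.8 CPM in XX 0 h libraries and at 322, 444, 487 and 498 CPM in XX 72 h libraries, an 18.6-fold ratio of means (logFC 4.16 ± 0.18, FDR = 4.39e-24). Tex12 was at 13.3, 14.4, 17.4 and 17.8 CPM at 0 h and at 194, 265, 295 and 295 CPM at 72 h (logFC 4.04 ± 0.20, FDR = 1.77e-21). Syce1, which binds SYCP1, rose from 145 ± 9.43 to 545 ± 28.9 CPM (logFC 1.91 ± 0.11, FDR = 1.55e-15). Syce2, the partner of TEX12, showed the lowest logFC of the 9, from 375 ± 49.1 to 858 ± 76.5 CPM (logFC 1.26 ± 0.11, FDR = 6.47e-07). With the shared-index share removed, the logFC was 5.23 for Syce3, 4.94 for Tex12, 4.83 for Sycp2, 4.01 for Sycp3 and 3.89 for Sycp1, and the same 9 genes were called.

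The rise in XX germ cells was spread unevenly over the culture. By 24 h, Tex12 (logFC 2.39 ± 0.21, FDR = 7.50e-09), Sycp2 (1.78 ± 0.14, FDR = 1.09e-08), Sycp3 (1.54 ± 0.14, FDR = 2.45e-06), Sycp1 (1.40 ± 0.11, FDR = 8.27e-07) and Syce1 (0.95 ± 0.12, FDR = 0.0392) had risen, 5 members against 2.32% of all genes. With the shared-index share removed the same 5 were called, with a logFC of 3.23 for Tex12 and 2.54 for Sycp2. Hormad1 and Hormad2 were at logFC 0.87 ± 0.15 and 0.94 ± 0.18 and were not called (FDR = 0.381 and 0.351), although in each case the libraries of the groups did not overlap, which held for 27.7% of all genes. Both were called by edgeR (FDR = 0.0382 and 0.0104), and Hormad2 also by limma without XX 24 h replicate 9. Syce2 was at 0.12 ± 0.12 (95% CI -0.12 to 0.36) and Syce3 at 0.32 ± 0.23 (95% CI -0.13 to 0.77). The 6 Sertoli and granulosa cell markers summed to 35.3 to 48.3 CPM at 0 h, 18.9 to 31.7 CPM at 24 h and 42.1 to 73.3 CPM at 72 h in XX libraries. At 24 h the interstitial sum was 9.93 to 20.8 CPM and the germ cell sum 2995 to 3929 CPM, both apart from 72 h. The part of these sums in the values was not tested.

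Syce3 and Syce2 showed most of their change after 24 h. Syce3 was at 25.9, 27.4, 28.8 and 68.4 CPM in the XX 24 h libraries, and its logFC from 24 h to 72 h was 3.84 ± 0.18 (FDR = 7.47e-21), against 0.32 over the first 24 h. With the shared-index share removed, its logFC over the first 24 h was 1.32 (FDR = 0.157). The logFC of Syce2 from 24 h to 72 h was 1.14 ± 0.12 (FDR = 0.000135). Between 24 h and 72 h, 9 members were called higher, against 10.3% of all genes. Of these, the Hormad2 call (logFC 1.00 ± 0.16, FDR = 0.0280) was lost without XX 24 h replicates 5 or 9 or XX 72 h replicate 11, without sample weights, and with edgeR and DESeq2. The Syce1 call (0.95 ± 0.11, FDR = 0.00546) was lost without XX 24 h replicate 5. Replicate 6 of the XX 24 h group was the highest library of its group for 9 of the 10 members, at 176 CPM for Tex12 against 67.5 to 82.5 CPM in the other 3. Without it, the call for Syce1 between 0 h and 24 h was lost. That call was also lost without XX 24 h replicate 4, without each of XX 0 h replicates 3, 4 and 5, and when only the compared libraries were fitted.

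Trip13 was at 80.8 ± 6.81 CPM at 0 h, 66.6 ± 5.92 CPM at 24 h and 56.9 ± 5.97 CPM at 72 h in XX germ cells. Its logFC from 0 h to 72 h was -0.49 ± 0.12 (95% CI -0.73 to -0.26), which was not called against a 1.5-fold change, though the groups did not overlap, as for 55.6% of all genes.

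**Figure D2:**
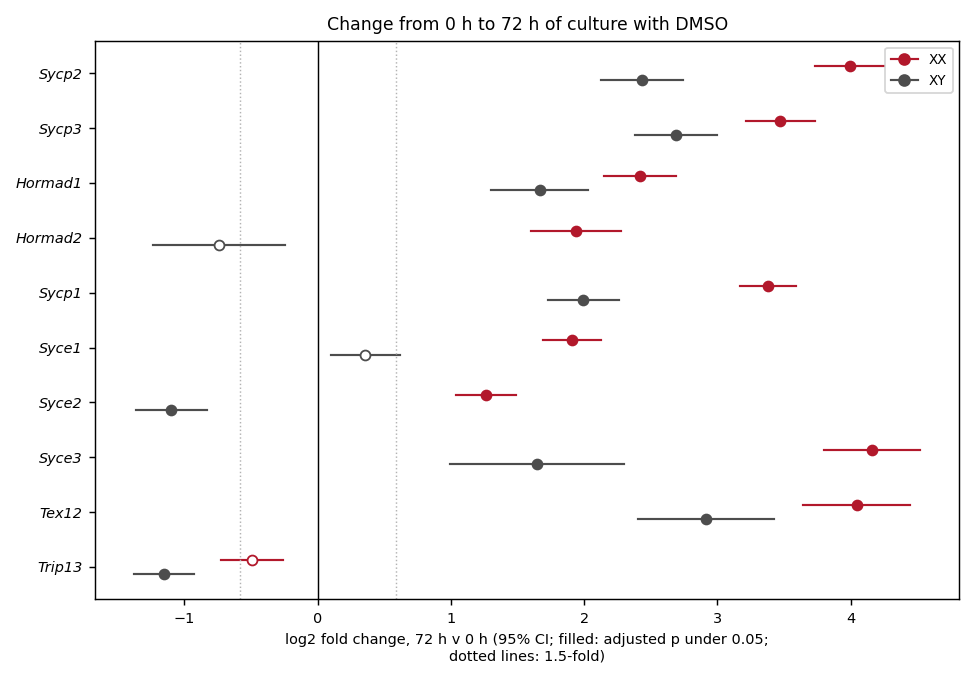
The logFC from 0 h to 72 h of DMSO culture for each gene in XX (red) and XY (grey) germ cells, with 95% CI; filled points had FDR under 0.05 against a 1.5-fold change. Syce2 rose by 1.26 in XX and stood at -1.10 in XY germ cells, and Trip13 lay below 0 in both.

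XY germ cells were then followed over the same period in DMSO. From 0 h to 72 h, 6 members were called higher, against 20.2% of all genes, and 2 were called lower, against 15.2%. The 3 endothelial markers summed to 3.37 to 4.83 CPM in XY 0 h and 11.3 to 22.8 CPM in XY 72 h DMSO libraries, the germ cell markers to 3584 to 4872 and 2821 to 3339 CPM, and their part in these values was not tested. The median logFC of the members was 1.66, against 0.06 over all genes. The transcripts that rose were Tex12 (logFC 2.91 ± 0.26, FDR = 2.88e-11), Sycp3 (2.69 ± 0.15, FDR = 4.84e-17), Sycp2 (2.43 ± 0.15, FDR = 3.89e-15), Sycp1 (1.99 ± 0.13, FDR = 1.80e-13), Hormad1 (1.67 ± 0.18, FDR = 1.11e-06) and Syce3 (1.65 ± 0.33, FDR = 0.00361), whose call was lost without XY 0 h replicate 3.

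Sycp3 illustrates the size of this rise in cells of the male lineage. It was at 71.3, 75.6, 85.5 and 86.9 CPM in XY 0 h libraries and at 462, 493, 500 and 571 CPM in XY 72 h DMSO libraries, all above the 4 XX 0 h libraries. Tex12 likewise went from 9.60, 9.80, 10.2 and 12.7 CPM to 67.7, 73.1, 82.4 and 93.2 CPM.

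Syce2 and Trip13 fell. Syce2 was at 261, 266, 289 and 296 CPM in XY 0 h libraries and at 109, 126, 128 and 162 CPM in XY 72 h DMSO libraries (logFC -1.10 ± 0.13, FDR = 0.000705). Trip13 went from 114 ± 7.19 to 51.2 ± 3.50 CPM (logFC -1.15 ± 0.11, FDR = 1.97e-05). Hormad2 was at 20.6 ± 2.72 CPM at 0 h, 28.1 ± 6.25 CPM at 24 h and 13 ± 2.0 CPM at 72 h. Its logFC was -0.74 ± 0.25 from 0 h to 72 h (FDR = 0.509) and -1.06 ± 0.24 from 24 h to 72 h (FDR = 0.0880), so neither change was called, although the 24 h and 72 h libraries did not overlap, as for 48.5% of all genes. The change from 24 h to 72 h was called by edgeR (FDR = 0.0122) and by limma without XY 24 h DMSO replicate 5. Syce1 was at logFC 0.36 ± 0.13 from 0 h to 72 h (95% CI 0.10 to 0.62).

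Within the first 24 h, Sycp1 (logFC 1.55 ± 0.14, FDR = 7.52e-07) and Sycp3 (1.22 ± 0.17, FDR = 0.0106) were called higher in XY germ cells, 2 members against 1.61% of all genes. For Sycp3 the call depended on replicate 3 of XY 0 h and on replicate 3 of XY 24 h DMSO, since it was lost when either was left out. From 24 h to 72 h in DMSO, 5 members were called higher, against 16% of all genes, and Trip13 was called lower (logFC -0.94 ± 0.11, FDR = 0.00760), against 11.3%. The Trip13 call was lost with DESeq2's size factors in the same fit and with DESeq2 itself. Sycp1 was at 0.44 ± 0.12 over this interval and was not called, so in XY DMSO cultures most of its change lay in the first 24 h. The Syce3 call over this interval was lost when either XY 24 h DMSO replicate 5 or XY 72 h DMSO replicate 2 was left out. In XY DMSO cultures the interstitial markers summed to 26.6 to 62.4 CPM at 0 h, 17.9 to 24.9 CPM at 24 h and 38.5 to 57.7 CPM at 72 h. The endothelial sum at 24 h was 1.04 to 2.59 CPM, below both other times, and the germ cell sum was 4107 to 5667 CPM, above 72 h. The part of these sums was not tested.

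The 24 h and 72 h FGFRi libraries belonged to 1 pool and gave the same interval without a change of pool. Between them, 5 members were called higher, against 19.2% of all genes, namely Tex12, Sycp2, Syce3, Hormad1 and Sycp3. Syce2 (logFC -1.31 ± 0.14, FDR = 7.68e-06) and Hormad2 (-1.20 ± 0.22, FDR = 0.0136) were called lower, against 14.2%. Over the same interval in DMSO, Syce2 was at logFC -0.82 ± 0.14 (FDR = 0.144), which limma did not call and edgeR did (FDR = 0.0496). The Hormad2 call was lost without XY 72 h FGFRi replicate 2 and without replicate 5. The call for Sycp3 (FDR = 0.0467) was lost without any of 5 of the 8 libraries: XY 24 h FGFRi replicates 1, 3 and 5 and XY 72 h FGFRi replicates 4 and 6. That for Syce3 (FDR = 0.0328) was lost without any of 3, namely XY 24 h FGFRi replicates 3 and 5 and XY 72 h FGFRi replicate 4. Without sample weights the calls for Sycp3 and Syce3 were lost, and with DESeq2 that for Syce3. Between 24 h and 72 h with FGFRi the endothelial sum went from 0.868 to 2.87 CPM to 8.58 to 12 CPM, and the germ cell sum from 5693 to 7542 CPM to 2330 to 3344 CPM, and their part in these values was not tested.

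The sexes were compared at each time. At 0 h, Sycp1 (logFC -1.40 ± 0.13, FDR = 9.71e-06), Syce3 (-1.65 ± 0.31, FDR = 0.0258) and Sycp3 (-1.16 ± 0.16, FDR = 0.0181) were lower in the XY group, 3 members against 1.65% of all genes called lower. Sycp1 was at 62.4, 75.7, 88.2 and 90.5 CPM in the XY libraries, against 200, 201, 208 and 231 CPM for XX. With the shared-index share removed, the call for Sycp1 was kept (logFC -1.13, FDR = 0.0182), whereas those for Sycp3 (FDR = 0.245) and Syce3 (FDR = 1) were lost. Without the filter on low counts none of the 3 was called, with an FDR of 0.0855 for Sycp1. The Sycp3 call was also lost without XX 0 h replicate 3 or XY 0 h replicates 3 or 6, and the Syce3 call without XX 0 h replicates 4 or 5 or XY 0 h replicates 3 or 6. Trip13 was at 0.52 ± 0.10 (95% CI 0.32 to 0.72). Other cells' markers also differed at 0 h, with the 5 interstitial markers summing to 26.6 to 62.4 CPM for XY and 13.7 to 25.9 CPM for XX, and the 3 endothelial markers to 3.37 to 4.83 and 1.39 to 1.94 CPM. Their part in these values was not tested.

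At 24 h, 7 members were lower in XY germ cells, against 5.99% of all genes, with logFC from -1.24 for Sycp1 to -2.43 for Tex12. Syce2 (-0.79 ± 0.13, FDR = 0.327), Hormad2 (-0.65 ± 0.18, FDR = 1) and Trip13 (0.57 ± 0.11, FDR = 1) were not called. The germ cell sum, 4107 to 5667 CPM for XY and 2995 to 3929 CPM for XX, lay apart at 24 h, and its part was not tested. Syce3 had 21 to 25 counts in each XY 24 h DMSO library, and its call was lost without XY 24 h DMSO replicate 5.

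At 72 h, 9 members were lower in XY DMSO than in XX DMSO germ cells, against 18.1% of all genes, and for each of the 9 the libraries did not overlap. Groups did not overlap for 58.5% of all genes. The median logFC of the 10 members was -2.08, against 0.10 over all genes. Syce3 had the widest gap, at 16.6, 21.3, 28.6 and 32.2 CPM in the XY libraries, against 322 to 498 CPM for XX (logFC -4.17 ± 0.20, FDR = 5.22e-22). Hormad2 was at 11.6, 11.9, 12.5 and 16.0 CPM in the XY libraries, against 81.6, 82.3, 84.8 and 91.0 CPM for XX (logFC -2.72 ± 0.22, FDR = 5.50e-12). Sycp1 and Syce2 were at logFC -2.78 ± 0.10 and -2.75 ± 0.13. The narrowest gaps among the 9 were those of Hormad1 (-1.72 ± 0.13) and Tex12 (-1.77 ± 0.14). Trip13 had means of 51.2 ± 3.50 CPM for XY and 56.9 ± 5.97 CPM for XX (logFC -0.14 ± 0.13, 95% CI -0.40 to 0.12).

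The difference between the sexes was itself larger at 72 h than at 0 h for 6 members, by a test of the interaction of sex and time, against 12.9% of all genes called in that direction. These were Hormad2 (logFC difference -2.68 ± 0.30, FDR = 8.47e-08), Syce3 (-2.51 ± 0.37, FDR = 2.32e-05), Syce2 (-2.36 ± 0.17, FDR = 3.16e-12), Sycp2 (-1.56 ± 0.20, FDR = 6.38e-05), Syce1 (-1.55 ± 0.17, FDR = 4.47e-06) and Sycp1 (-1.38 ± 0.17, FDR = 8.79e-05). Sycp3 (-0.78 ± 0.20), Hormad1 (-0.76 ± 0.23), Tex12 (-1.13 ± 0.32) and Trip13 (-0.66 ± 0.16) were not called. Tex12 was called by edgeR (FDR = 0.0456) and with the shared-index share removed (-1.64, FDR = 0.0212), a setting that put Syce3 at -3.43. Because the values are from bulk samples, fewer cells expressing a gene and less RNA per cell cannot be told apart here or in the comparisons below.

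The effect of each inhibitor on XY germ cells was examined against DMSO at the same time. With FGFRi no member was called at 24 h, against 0.262% of all genes called in either direction, or at 72 h, against 0.00656%. With MEKi no member was called at 24 h, against 0.164%. In these 3 comparisons no member reached an unadjusted p under 0.05 in limma's treat test, against 2.58%, 0.584% and 2.31% of all genes, and neither edgeR nor DESeq2 with the same fold threshold called one. At 24 h the logFC with MEKi ranged from -0.20 ± 0.42 for Syce3 (95% CI -1.04 to 0.65) to 0.35 ± 0.21 for Hormad1 (95% CI -0.07 to 0.77). With the shared-index share removed these logFC were 0.15 for Syce3 and 0.55 for Hormad1, that for Tex12 was 0.60, and none was called. The 7 blood and macrophage markers summed to 188 to 487 CPM in MEKi and 27.9 to 117 CPM in DMSO libraries at 24 h, the germ cell markers to 5693 to 7542 CPM in FGFRi and 4107 to 5667 CPM in DMSO libraries, and their part in these values was not tested. With FGFRi at 72 h, Sycp3 was at 316, 319, 383 and 398 CPM against 462 to 571 CPM in DMSO, without overlap, as for 6.71% of all genes. Its logFC was -0.52 ± 0.13 (95% CI -0.78 to -0.27), which was not called against a 1.5-fold change (FDR = 1). Against no change, limma gave an FDR of 0.0240 and called Sycp3 alone among the members, against 1.08% of all genes.

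After 72 h with MEKi, 2 members were called higher than in DMSO, Hormad2 and Syce2, against 4.01% of all genes, and none was called lower, against 5.11%. The median logFC of the 10 members was 0.51, against 0.01 over all genes. Hormad2 was at 30.3, 40.0, 40.4 and 47.1 CPM with MEKi, against 11.6, 11.9, 12.5 and 16.0 CPM with DMSO. The DMSO values rest on only 18 to 30 counts per library, and the MEKi values on 95 to 202. Every MEKi library was above every DMSO library, and the logFC was 1.55 ± 0.22 (FDR = 0.000910). Syce2 was at 232, 254, 359 and 380 CPM with MEKi, against 109, 126, 128 and 162 CPM with DMSO (logFC 1.15 ± 0.13, FDR = 0.000749). Both calls were kept by edgeR, by DESeq2 and without any 1 of the 8 libraries. For Syce2, Sycp1 and Sycp3 the lower MEKi libraries were replicates 3 and 4, with 4784965 and 4453783 total counts. The higher ones, replicates 2 and 5, had 1940297 and 2385976. Replicate 3 was the lowest MEKi library for 7 of the 10 members. The part of library depth in these values was not tested.

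**Figure D3:**
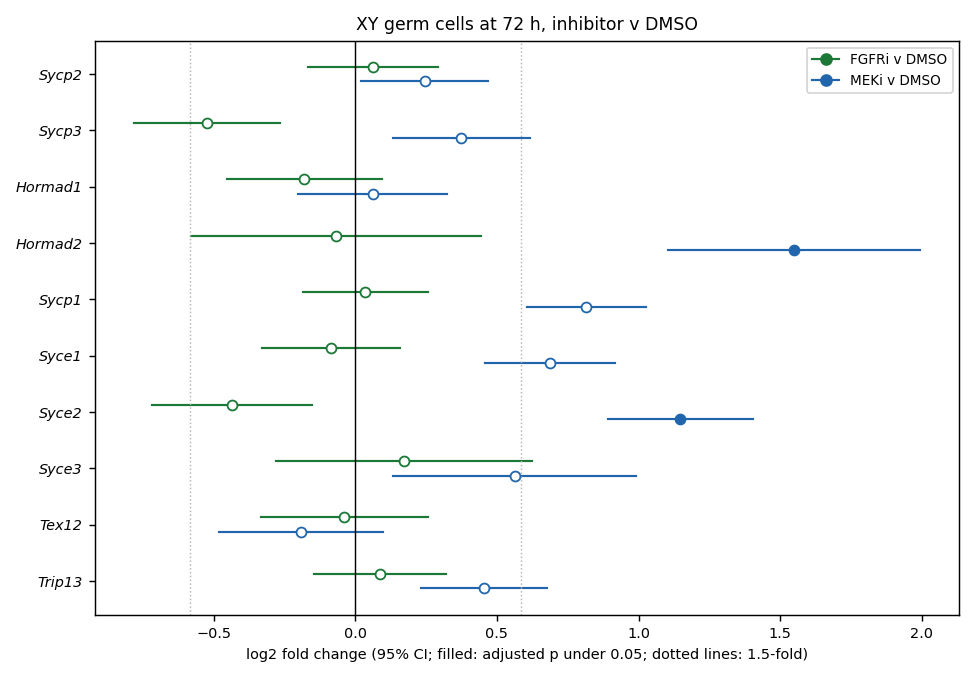
The logFC of FGFRi (green) and MEKi (blue) against DMSO in XY germ cells at 72 h for each gene, with 95% CI; filled points had FDR under 0.05 against a 1.5-fold change. Hormad2 at 1.55 and Syce2 at 1.15 are the filled points, both with MEKi.

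Sycp1 and Syce1 lay between these and the rest. Sycp1 was at 502, 521, 631 and 651 CPM with MEKi against 294, 312, 317 and 347 CPM with DMSO, and the groups did not overlap. Its logFC of 0.82 ± 0.10 had a 95% CI of 0.61 to 1.02 and was not called (FDR = 0.128), but it was called by edgeR and by limma without XY 72 h MEKi replicate 3 or replicate 4. Syce1 was at 178, 193, 206 and 222 CPM against 107, 121, 129 and 135 CPM (logFC 0.69 ± 0.11, FDR = 0.752). Against no change rather than 1.5-fold, limma gave an FDR of 5.47e-09 for Sycp1 and 1.87e-06 for Syce1. By that weaker criterion 7 members were called, against 45.8% of all genes.

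Syce3 was at 33.1, 35.2, 36.2 and 49.8 CPM with MEKi against 16.6 to 32.2 CPM with DMSO (logFC 0.56 ± 0.21), and Trip13 at 70.4 ± 5.88 against 51.2 ± 3.50 CPM (0.45 ± 0.11). Neither was called, although neither pair of groups overlapped. Among all genes, 38.3% had groups that did not overlap in this comparison. The axis core genes Sycp2 (0.24 ± 0.11, 95% CI 0.02 to 0.47) and Sycp3 (0.37 ± 0.12, 95% CI 0.13 to 0.62) overlapped between groups, as did Hormad1 (0.06 ± 0.13, 95% CI -0.20 to 0.33) and Tex12 (-0.19 ± 0.14, 95% CI -0.48 to 0.10). For these 4 genes, the intervals for Hormad1, Tex12 and Sycp2 lay within 1.5-fold in both directions, and that for Sycp3 reached just beyond it.

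In the MEKi cultures Syce2 was at 247 ± 26.4 CPM at 24 h and 306 ± 74.3 CPM at 72 h (logFC 0.20 ± 0.12, not called), whereas in the FGFRi cultures it fell over the same interval. Hormad2 was at 28.4 ± 1.29 and 39.5 ± 6.95 CPM (logFC 0.41 ± 0.17, not called). These comparisons share the MEKi libraries with the comparison against DMSO. The MEKi mean at 72 h was 1.10 times the XY 0 h mean for Syce2 and 1.91 times for Hormad2. Between 24 h and 72 h with MEKi, 6 members were called higher, namely Sycp3, Sycp2, Syce3, Tex12, Sycp1 and Hormad1, against 10.9% of all genes. The blood and macrophage sum went from 188 to 487 CPM at 24 h to 12.5 to 27.4 CPM at 72 h with MEKi, and the germ cell sum from 5123 to 5996 CPM to 2574 to 3966 CPM, and their part was not tested. The difference between the MEKi effects at 72 h and 24 h was not called for any member, with an FDR of 0.0822 for Hormad2 (1.47 ± 0.30) and 0.219 for Syce2 (1.02 ± 0.18), against 1.89% of all genes called in either direction. At an unadjusted p under 0.05, 3 members passed, against 9.77% of all genes. edgeR called 2, Hormad2 and Syce2, against 3.24% of all genes, and DESeq2 called none. Without XY 72 h MEKi replicate 3 both were called, without XY 72 h MEKi replicate 4 Syce2 was, and without XY 24 h DMSO replicate 5 Hormad2 was.

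Both inhibitors were then compared directly at 72 h, at the same dose. Hormad2 (logFC 1.62 ± 0.19, FDR = 1.75e-05), Syce2 (1.58 ± 0.13, FDR = 1.04e-08) and Sycp3 (0.90 ± 0.12, an FDR just under 0.05) were higher with MEKi than with FGFRi, 3 members against 5.71% of all genes. The Sycp3 call was lost in 10 of 17 alternative fits. Among these were the fits without XY 72 h FGFRi replicates 2 or 5 and without XY 72 h MEKi replicates 2 or 5, and that with the shared-index share removed (FDR = 0.0685).

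Markers of other cells moved between the 72 h groups. The summed level of the 3 endothelial markers Cdh5, Kdr and Tie1 was 11.3 to 22.8 CPM in XY DMSO, 8.58 to 12 CPM in FGFRi, 0.496 to 5.95 CPM in MEKi and 0 to 3.21 CPM in XX libraries. That of the 6 Sertoli and granulosa cell markers was 22.6 to 36.5 CPM in XY DMSO, 26.5 to 42.0 CPM in FGFRi, 38.0 to 89.2 CPM in MEKi and 42.1 to 73.3 CPM in XX libraries, so that XX and MEKi lay apart from XY DMSO. Within that list the means in XX, XY DMSO and MEKi libraries were 23.4, 6.33 and 9.44 CPM for Wt1, 9.41, 0.714 and 1.55 CPM for Foxl2, 8.48, 4.33 and 21.1 CPM for Aard, 6.19, 10.6 and 16.3 CPM for Sox9, 2.85, 6.67 and 7.49 CPM for Fst, and 0, 0.166 and 0.0895 CPM for Amh. The 5 interstitial markers summed to 38.5 to 57.7 CPM in XY DMSO, 25.1 to 34.3 CPM in FGFRi, 34.7 to 62.8 CPM in MEKi and 51.1 to 69.2 CPM in XX libraries. The 7 blood and macrophage markers summed to 19.2 to 59.7, 14.7 to 61.5, 12.5 to 27.4 and 17.5 to 22.1 CPM in the same order. None of these markers was at 0 in all libraries of the MEKi group, and in the XY DMSO group 1 blood marker was, in FGFRi 1 Sertoli and granulosa marker, and in XX 1 of each of these lists. The 6 germ cell markers summed to 2821 to 3339 CPM in XY DMSO and 2574 to 3966 CPM in MEKi libraries, and to 2123 to 2500 CPM in XX libraries. The part of these differences in the members' values was not tested.

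MEKi-treated XY germ cells were also set against XX germ cells at 72 h. The same 9 members that were lower in XY DMSO than in XX cells were lower here, against 12.8% of all genes. As a share of the XX mean, the MEKi mean was 46.5% for Hormad2 (DMSO 15.3%), 36.7% for Syce1 (DMSO 22.6%), 36.7% for Sycp3 (DMSO 26.8%), 35.7% for Syce2 (DMSO 15.3%), 33.1% for Hormad1 (DMSO 31.1%), 30.0% for Sycp2 (DMSO 24.8%), 27.0% for Tex12 (DMSO 30.2%), 26.5% for Sycp1 (DMSO 14.6%) and 8.80% for Syce3 (DMSO 5.64%). The logFC of MEKi-treated XY against XX cells was narrowest for Hormad2 (-1.17 ± 0.14, FDR = 0.000393) and widest for Syce3 (-3.60 ± 0.15, FDR = 4.13e-24). Trip13 stood at 124% of the XX mean (logFC 0.32 ± 0.12, not called). At 24 h, 7 members were lower with MEKi than in XX cells, against 5.52% of all genes. The Sertoli and granulosa sum at 24 h was 39 to 53.7 CPM with MEKi and 18.9 to 31.7 CPM in XX libraries, the blood and macrophage sum 188 to 487 and 20.8 to 39.2 CPM, and the germ cell sum 5123 to 5996 and 2995 to 3929 CPM, and their part was not tested.

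**Figure D4:**
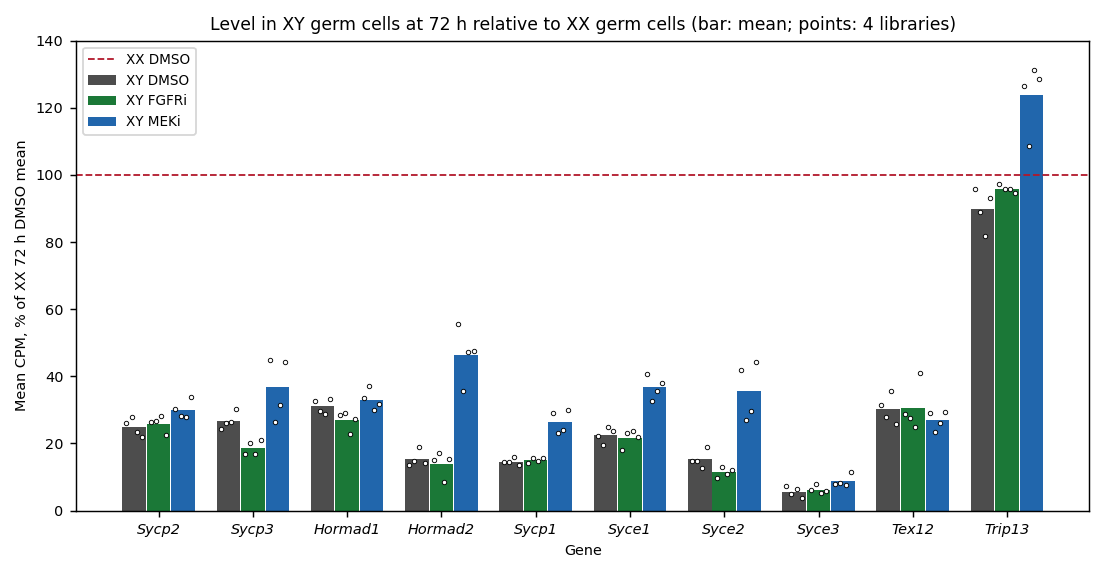
Mean CPM at 72 h in XY DMSO, FGFRi and MEKi germ cells as a percentage of the XX DMSO mean (dashed line at 100%), with points for the 4 libraries. Hormad2 reaches 46.5% with MEKi against 15.3% with DMSO, and Trip13 is the only gene near or above the XX mean in XY cells.

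The members were read beside other genes of meiotic prophase, in lists chosen by role. Of 47 listed genes, 43 were tested. From 0 h to 72 h in XX germ cells 32 of the 43 rose, against the 18.8% of all genes given above, and 1 fell. At 72 h 34 were lower in XY DMSO than in XX cells, against 18.1%, and none was higher. With MEKi at 72 h, 10 of the 43 were called higher, against 4.01% of all genes, and none lower, with a median logFC of 0.70. By role, the genes called higher with MEKi were 4 of 9 tested genes of a mixed list of other axis, cohesin and associated genes, 3 of 6 meiotic entry genes, 2 of 8 break formation genes, 2 of 9 strand exchange genes, 2 of 5 telomere attachment genes and 0 of 10 crossover genes. The mixed list holds the RNA regulators Meioc and Ythdc2, which stand among the meiotic entry genes too, and its 4 called genes were Rec8, Smc1b, Iho1 and Meioc. Some genes stand in more than 1 list. At 24 h, 1 of the 43 was called higher with MEKi, Stra8 (logFC 2.19 ± 0.17, FDR = 2.07e-09), against 0.164% of all genes called in either direction.

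Stra8, the gene of the meiotic entry factor, was at 948 ± 186 CPM with MEKi, 102 ± 28.5 CPM with DMSO and 696 ± 143 CPM in XX cells at 72 h (logFC 3.18 ± 0.16 for MEKi v DMSO, FDR = 2.34e-18). Rec8, the meiotic cohesin subunit of the axis, was at 142 ± 15.7, 36.8 ± 2.17 and 70.8 ± 25.6 CPM in the same order (logFC 1.97 ± 0.16, FDR = 3.47e-09). Meioc, needed to extend meiotic prophase, was at 68.8 ± 5.23 CPM with MEKi, 12.4 ± 5.66 CPM with DMSO and 365 ± 30.9 CPM in XX cells (logFC 2.56 ± 0.27, FDR = 8.31e-08). Iho1, which binds HORMAD1 on the axis, was at 14.5 ± 2.28, 4.81 ± 2.17 and 68.1 ± 4.75 CPM (logFC 1.54 ± 0.31, FDR = 0.0226). Terb1, of the telomere attachment complex, was at 25.6 ± 1.42, 3.67 ± 1.22 and 319 ± 16.9 CPM (logFC 2.74 ± 0.41, FDR = 7.02e-05). Dmc1, the meiotic recombinase, was at 28.3 ± 9.05, 7.06 ± 1.63 and 210 ± 28.8 CPM (logFC 2.02 ± 0.33, FDR = 0.000896). Stra8 and Rec8 had MEKi means above the XX means (MEKi-treated XY v XX, logFC 0.37 ± 0.14, FDR = 1 for Stra8 and 1.16 ± 0.15, FDR = 0.00115 for Rec8), whereas every member other than Trip13 had a MEKi mean below that of XX cells.

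The genes outside the list whose group means over the 10 groups lay closest to the mean standardised profile of the members were Cenpk, a kinetochore gene (Pearson's r = 0.994), Gm4779 (0.990), 8030474K03Rik (0.989), Stxbp5l (0.988) and Papolg, a poly(A) polymerase gene (0.987). Among the members themselves, r with that profile ranged from 0.709 for Syce2 to 0.977 for Syce1, and was -0.535 for Trip13. These values are descriptions over 10 group means and were not tested.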

How the data were processed

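Germ cell RNA of 40 libraries was read from the poly(A) end with sample indices and unique molecular identifiers (UMIs). Per the study's methods, scPipe was used for demultiplexing, exon assignment (with the strand option on in the study's code) and UMI collapse, and Rsubread for alignment to GRCm39. The study's methods and its code give different UMI lengths, so a count may not equal 1 molecule. The authors deposited the resulting counts per gene, not normalised; aligner and annotation versions are not given in the sources used here. The submitters' processing notes name limma and edgeR. A deposited list of sample indices was used to find libraries that shared one.

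Genes were matched by identifier to GENCODE M39 (GRCm39), which paired 40391 of 42422. Low counts were filtered with filterByExpr, and TMM scaling, voom with sample quality weights, a fit of all 40 libraries with 1 mean per group, and treat (1.5-fold, Benjamini-Hochberg over 15252 genes) followed the study's design (limma 3.58.1, edgeR 4.0.16, R 4.3.3). The test was tested on simulated counts for MEKi v DMSO at 72 h over 14243 genes, where it recovered 79% of 100 genes changed 3-fold and 99% of 100 changed 6-fold, with 0 false calls. Unchanged genes were simulated with no change at all, so false calls against a 1.5-fold null were unlikely from the outset. Genes with low expected counts were not among those changed, so these figures are not error rates for these data. CPM used TMM-scaled library sizes, and log2 CPM a prior count of 2. Alternatives were limma without the fold threshold in its null, edgeR glmTreat, DESeq2 1.42.0, no sample weights, DESeq2 size factors, no filter, the compared libraries alone, removal of the shared-index share, the replicate number as a block, and leaving out each library. Named genes were all 10 members, up to 12 genes of the meiotic lists called with MEKi at 72 h, and the 5 genes closest in group means. The members and lists were chosen with earlier results of these data known. Six6os1 was matched through its RefSeq synonym. Zglp1 and Spo16 were not matched to a row, and Sycp2l and Spata22 were below the filter. Nothing in the labels says how samples of a group relate beyond separate pools of gonads, so p-values measure the spread between these samples. Total counts of 1178953 to 5199153 set the precision. The study's somatic cell data were not used here.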

Additional observations from a re-analysis of the deposited data

Results flagged for a closer look

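Some member values stood apart within their group of 4, by the 95% critical value of Dixon's ratio of the gap to the range. Of 100 gene-by-group sets, 8 had such a value, where chance alone flags about 1 in 20. In XX 24 h DMSO, replicate 6 was high for Sycp3 (809 CPM, next 472), Syce3 (68.4, next 28.8) and Tex12 (176, next 82.5). Sycp2 was high in XY 24 h DMSO replicate 3 (93.2, next 59.8) and XY 24 h MEKi replicate 2 (85.5, next 61.4). Syce1 was high in XY 0 h replicate 6 (112, next 91.0). Sycp3 was low in XX 72 h DMSO replicate 7 (1542, next 1980), and Trip13 low in XX 0 h replicate 4 (70.6, next 83.8).

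The sex difference was larger at 72 h than at 0 h, by the interaction test in limma, for Sycp1 (-1.38 on the log2 scale, XY minus XX), Sycp2 (-1.56), Syce1 (-1.55), Syce2 (-2.36), Syce3 (-2.51) and Hormad2 (-2.68). The 2 times come from different pools, so the pool and the time cannot be told apart, although each sex difference was measured within 1 pool.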

How the results depend on the processing

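Of 200 results for single members over 20 comparisons, 156 kept their call under every alternative, and none of the called values changed sign. Without the filter on low counts, over 40820 genes, the members called fell to 3 for XX 24 h v 0 h (1.05% of all genes called, 3.23% with the filter), 1 for XY 24 h v 0 h (0.808%, 2.94%) and 0 for XY v XX at 0 h (0.946%, 3%), and rose to 1 for the change in the MEKi effect between 24 h and 72 h (0.85%, 1.89%). Calls lost there were also Sycp3 (FDR = 0.0509) and Syce3 for XY v XX at 24 h, Syce3 for XY 72 h v 24 h and v 0 h in DMSO, both genes for FGFRi 72 h v 24 h, and Sycp3 for MEKi v FGFRi. With limma tested against no change and an observed fold over 1.5, they were 5 for XY v XX at 0 h (14.7% of all genes), 4 for MEKi v DMSO at 72 h (31.1%), 5 for MEKi v FGFRi at 72 h (34.5%), 3 for the change in the MEKi effect between 24 h and 72 h (18.9%) and 10 for the sex difference at 72 h less that at 0 h (49.9%). For XY v XX at 0 h, 1 member was called without sample weights and 1 with the shared-index share removed. edgeR called 2 for the change in the MEKi effect between 24 h and 72 h. Leaving out single libraries gave 1 to 2 members for XY 24 h v 0 h, 1 to 3 for XY v XX at 0 h and 0 to 2 for the change in the MEKi effect between 24 h and 72 h. The cause of these changes was not tested.

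The labels do not say whether equal replicate numbers pair the samples. In libraries of different groups with the same sex and time, deviations from the group means of same-numbered libraries correlated at a median of -0.0091 over 17 pairs. Of these, 1 pair was over 0.1. These values show no strong common effect of the number, but cannot show that the samples were unpaired. With the replicate number as a block, members called went from 5 to 4 for XX 24 h v 0 h (all genes 493 to 234). They went from 0 to 1 for the change in the MEKi effect between 24 h and 72 h (288 to 239). For XY 72 h v 24 h in DMSO they went from 6 to 7 (4164 to 3843), and for FGFRi 72 h v 24 h from 7 to 5 (5106 to 4529). They went from 3 to 2 for XY v XX at 0 h (457 to 322) and for MEKi v FGFRi at 72 h (1936 to 1037). Replicate numbers 7, 8 and 11 occurred only in the XX 72 h group, so in that fit its mean rested on replicate 4 alone. Counts for comparisons with XX 72 h are therefore left out. Number 9 occurred only in XX 24 h, so that library did not inform the XX 24 h mean there. Depth limits the low counts, with as few as 4 counts of Syce3 in a library.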
